A study of Rattus norvegicus with 12 samples.

Results

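Cathepsins and their secreted inhibitor cystatin C were followed across cultured neural stem cells (NSCs) of rat brain and spinal cord. The 9 genes were Ctsb, Ctsc, Ctsd, Ctsh, Ctsk, Ctsl, Ctss and Ctsz, which encode lysosomal proteases, and Cst3, which encodes cystatin C. They were taken as every probe set of an Affymetrix expression array whose single gene symbol was that of a member, which gave 11 probe sets (Ctsc and Ctsl had 2 each) among 31042 that were not controls, and 9 genes among 14217. RNA came from NSCs of Sprague Dawley rats 3 to 5 days old, taken from brain or from spinal cord and kept in a proliferative or brought to a differentiated state, with 3 arrays in each of the 4 groups (brain proliferative, brain differentiated, spinal cord proliferative and spinal cord differentiated). No genetic change or drug is named for any group. The method and length of differentiation were not given in the sources used here. Separate cultures or animals are not named for the arrays within a group, so the p-values cover array-to-array spread, which could be purely technical. The series sets the states against each other within a tissue, and the tissues within a state.

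Cathepsins are made as inactive precursors, carried to the lysosome largely by mannose 6-phosphate receptors, and activated there at acid pH. Most of those followed here are cysteine proteases of the papain family, and cathepsin D is an aspartic protease. Cathepsins B and L cut proteins broadly, cathepsins C, H and Z trim their ends, and cathepsins S and K have narrower homes, in antigen-presenting cells and microglia for S and in osteoclasts and activated fibroblasts for K. Cystatin C inhibits cysteine cathepsins tightly and is a plentiful product of astrocytes and choroid plexus, and mutations of cathepsin D cause a lysosomal storage disease of neurons.

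Values are the deposited MAS5 signals on the log2 scale, so a difference of 1 is a ratio of 2, and signals of different probe sets are not set against each other. Differences were tested with limma in a single fit to the 12 arrays, and adjusted p-values are Benjamini-Hochberg over 20834 probe sets tested, with a threshold of 0.05. Testing required a signal above the array's 40th percentile (5.91 to 6.41) on 3 or more of the 12 arrays. All 11 member probe sets were tested. A group is called dim for a gene where all 3 arrays lay at or under that percentile. This held for Ctsk in both brain groups and for no other member, so Ctsk passed the filter through the spinal cord arrays alone. Against a dim group a fold is a lower bound ("at least"), taken from the bright mean and the dim group's mean percentile, and 2 dim groups get no fold. The adjusted p-value beside such a fold comes from the fit to the deposited values, dim ones included.

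Array medians ran from 6.88 to 7.23. Among 9 NSC markers on the array, Hes5 alone was dim in 3 of the groups and none was dim in differentiated brain cultures. The summed linear signal of these markers was 52400 to 62200 on brain proliferative, 64200 to 75000 on brain differentiated, 44100 to 47000 on spinal cord proliferative and 41000 to 43000 on spinal cord differentiated arrays. Spinal cord proliferative replicate 1 stood apart from replicates 2 and 3 of its group for many members. Its distance from their mean was -1.64 and -1.78 for the Ctsc probe sets, -0.79 for Ctsd, -0.78 for Ctsh, -0.71 for Ctsk, -0.60 for Ctsb and -0.46 for Cst3. For Ctss it was 0.58 above them, and for Ctsl and Ctsz it was within 0.15 of them. Member calls that changed without this array are given below with both values.

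In brain, differentiation went with higher cathepsin signals: 7 of 11 member probe sets (5 of 9 genes) rose and 0 fell, where 23.7% of all probe sets tested rose and 23.1% fell. In spinal cord, 3 rose and 2 fell, beside 18.3% and 22.0% of all. Proliferative spinal cord cultures were above brain cultures in 10 of 11 probe sets and below in 0, beside 19.4% and 18.5% of all. Differentiated spinal cord cultures were above brain in 8 and below in 1, beside 18.5% and 22.9%. Both counts above brain include Ctsk, which passed the filter through the spinal cord arrays alone. The differentiation response differed between tissues in 7 of 11 probe sets, with 1 more positive and 6 more negative in spinal cord, beside 18.8% and 21.7%. The 1 more positive was Ctsk, dim in both brain groups. Ctsc and Ctsl count with 2 probe sets each, and the 6 more negative were of 4 genes. Median log2 differences over the 11 probe sets were 0.99 in brain differentiation, 0.02 in spinal cord differentiation, 1.80 between tissues before and 0.88 after differentiation, and -0.73 in the difference of responses. Over all probe sets tested the medians were 0.00, -0.05, -0.02, -0.06 and -0.04. These contrasts share arrays: the proliferative and differentiated groups of a tissue enter both kinds of comparison. Members were chosen with earlier results of these data known, so their counts and medians beside all probe sets are a description. When each array was centred on its median instead, higher calls among all probe sets went from 50.6% to 38.2% of calls in brain differentiation, from 51.2% to 31.7% between proliferative cultures and from 46.4% to 61.3% in the difference of responses, and the member calls this ended are named with each gene.

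**Figure D1:**
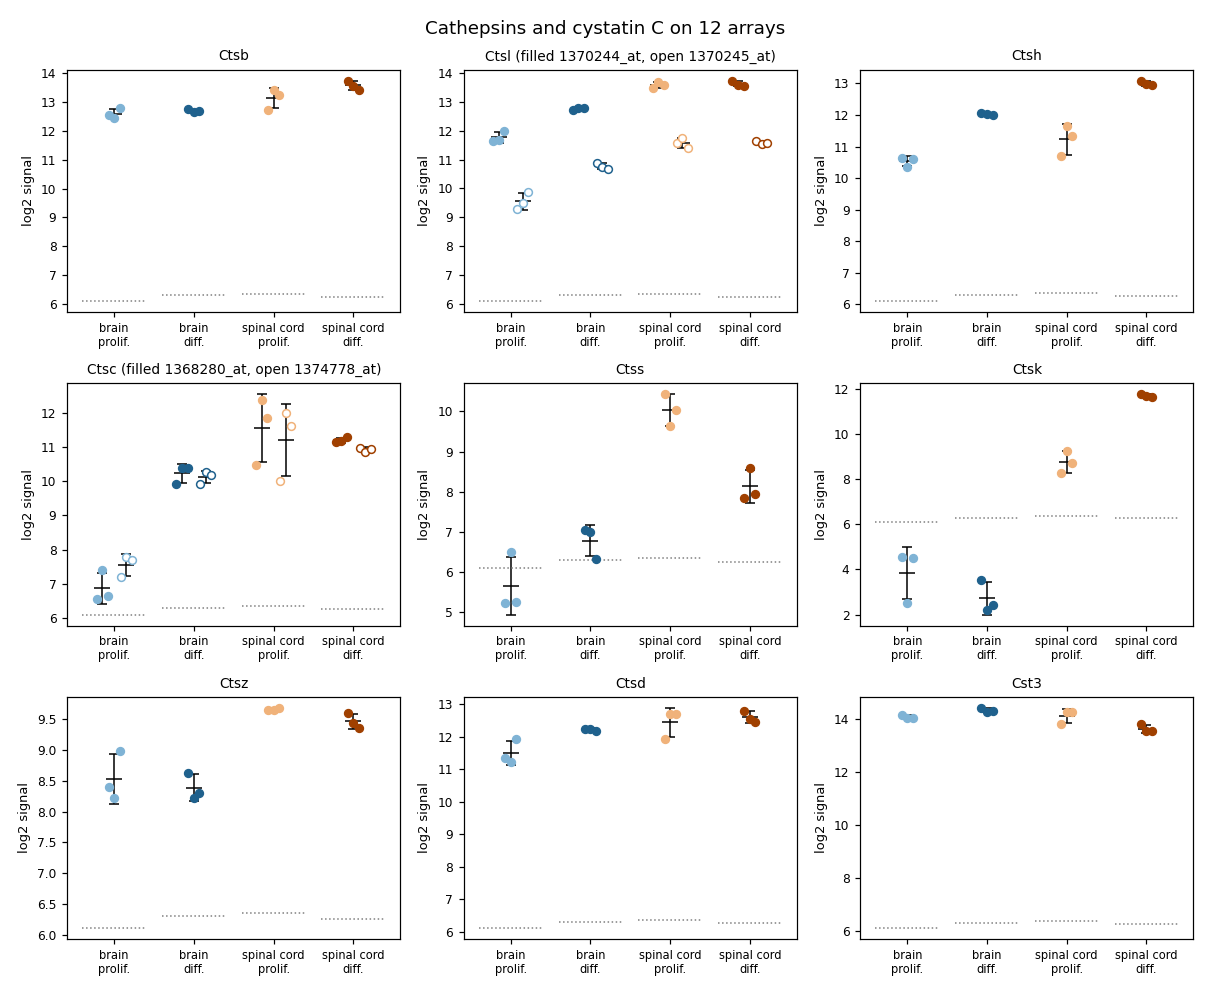
Log2 signal (vertical axis) of each member on the 12 arrays, by group, with 1 point per array, the bar and whiskers giving mean ± SD of 3 arrays and the dotted line the group's mean 40th percentile. Ctsc and Ctsl have 2 probe sets each, filled and open; Ctsk lies under the dotted line on all 6 brain arrays and between 8.27 and 11.77 on the spinal cord arrays.

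Cathepsin L, an endopeptidase that also trims other lysosomal enzymes, was lowest in proliferative brain cultures and rose there with differentiation, while in spinal cord the states overlapped. Probe set 1370244_at read 11.66, 11.67 and 11.995 on brain proliferative arrays and 12.73, 12.79 and 12.77 on brain differentiated ones. In spinal cord it read 13.48, 13.68 and 13.57, then 13.73, 13.59 and 13.55 after differentiation. The brain groups did not overlap with each other or with the cord groups, and the cord groups overlapped. The rise in brain was 1.98-fold (95% interval 1.72 to 2.29, limma adjusted p = 2.57e-06), and 2.33-fold by probe set 1370245_at (adjusted p = 8.14e-06). In spinal cord the log2 change was 0.05 (95% interval -0.16 to 0.26), which was not called (adjusted p = 0.734), and 0.02 by the other probe set (-0.28 to 0.31). Spinal cord exceeded brain 3.49-fold in proliferative cultures (adjusted p = 1.59e-08) and 1.82-fold in differentiated ones (adjusted p = 7.79e-06), and the other probe set gave 4.04-fold and 1.75-fold.

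Cathepsin B, the other broad protease and the one with both endopeptidase and exopeptidase activity, was higher in spinal cord than in brain in both states. It read 12.54, 12.46 and 12.78 on brain proliferative arrays and 12.74, 12.65 and 12.69 on brain differentiated ones, which overlapped. In spinal cord it read 12.73, 13.41 and 13.25 in the proliferative state and 13.73, 13.56 and 13.42 in the differentiated one. The cord groups met without overlap, at 13.41 and 13.42. The change in brain was 0.10 on the log2 scale (95% interval -0.22 to 0.42, adjusted p = 0.616). The rise in spinal cord was 1.36-fold (adjusted p = 0.0292). This call was kept in 15 of 21 alternatives (adjusted p of 0.00736 to 0.116). It was lost with quantile normalization, eBayes without a trend and only the groups of the contrast, and with 1 cord array left out, namely proliferative replicate 1 (1.18-fold, adjusted p = 0.102), differentiated replicate 1 (adjusted p = 0.116) or differentiated replicate 2 (adjusted p = 0.0661). Spinal cord was 1.84-fold above brain in differentiated cultures (adjusted p = 0.000296) and 1.45-fold in proliferative ones (adjusted p = 0.0111), a call that ended with median centring (log2 difference 0.33, adjusted p = 0.158) and with proliferative cord replicate 2 left out (adjusted p = 0.0564).

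Cathepsin H, an aminopeptidase that takes residues off the front end of proteins, was the member that rose with differentiation in both tissues. Its signals were 10.65, 10.35 and 10.61 on brain proliferative arrays and 12.05, 12.04 and 11.99 on brain differentiated arrays. On the spinal cord arrays they were 10.71, 11.66 and 11.32, and 13.08, 12.98 and 12.93 after differentiation. All 4 groups were free of overlap, in the order brain proliferative, spinal cord proliferative, brain differentiated and spinal cord differentiated. The rise was 2.82-fold in brain (95% interval 2.17 to 3.66, adjusted p = 1.32e-05) and 3.41-fold in spinal cord (2.63 to 4.43, adjusted p = 3.67e-06). These rises did not differ by more than the spread: their log2 difference was 0.28 with an interval of -0.26 to 0.81 (adjusted p = 0.403), or 0.02 when proliferative replicate 1 of spinal cord was left out. Spinal cord was above brain 1.96-fold in differentiated cultures (adjusted p = 0.000534) and 1.62-fold in proliferative ones (adjusted p = 0.00685), the latter not called after median centring (adjusted p = 0.0573).

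Cathepsin C, a dipeptidyl peptidase that activates the granule proteases of immune cells, showed the widest brain response of the members that were not dim. Probe set 1368280_at read 6.57, 7.40 and 6.64 on brain proliferative arrays and 9.91, 10.38 and 10.39 on brain differentiated ones. Every differentiated array lay above every proliferative one, a rise of 10.3-fold (95% interval 5.97 to 17.6, adjusted p = 6.44e-06), and of 5.87-fold by probe set 1374778_at (adjusted p = 6.35e-05). In spinal cord the signals were 10.47, 12.38 and 11.83 before and 11.13, 11.17 and 11.29 after differentiation, so that the proliferative arrays spread across the differentiated ones. The log2 change in spinal cord was -0.36 (-1.14 to 0.42, adjusted p = 0.46). With proliferative replicate 1, which read 10.47, left out, the gene fell 1.88-fold (adjusted p = 0.00698), and 1.84-fold by the other probe set (adjusted p = 0.0012). Proliferative spinal cord cultures were 25.8-fold above brain cultures (15.01 to 44.37, adjusted p = 4.1e-07), and 12.5-fold by the other probe set; without replicate 1 these were 37.7-fold and 18.8-fold. In differentiated cultures the tissues were closer, with spinal cord 1.96-fold higher by 1368280_at (adjusted p = 0.0465) and a log2 difference of 0.80 that was not called by 1374778_at (adjusted p = 0.0918). The latter was called in 4 of 21 alternatives: only the groups of the contrast (adjusted p = 6.05e-05), the replicate block (adjusted p = 0.0497), and with proliferative cord replicate 1 (adjusted p = 0.000852) or 2 (adjusted p = 0.0471) left out. The call of 1368280_at was lost in 9 of 12 fits that left out 1 array (adjusted p of 0.00185 to 0.148 over the 12).

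Cathepsin Z, a carboxypeptidase that removes single residues from the tail of proteins, differed between tissues and had no called change between states. Brain arrays ran from 8.22 to 8.99 and spinal cord arrays from 9.36 to 9.69, with no overlap between tissues. The brain groups overlapped. The cord groups did not, with the lowest proliferative array at 9.65 and the highest differentiated one at 9.60. The log2 change with differentiation was -0.15 in brain (-0.53 to 0.24, adjusted p = 0.53) and -0.19 in spinal cord (-0.58 to 0.19, adjusted p = 0.419). Spinal cord was 2.19-fold above brain in proliferative cultures (1.67 to 2.86, adjusted p = 0.000252) and 2.12-fold in differentiated ones (1.62 to 2.77, adjusted p = 0.000258).

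Cathepsin S works at nearer neutral pH than most relatives and cuts the invariant chain that guards MHC class II molecules. Its signal was high in proliferative spinal cord cultures, at 10.43, 9.64 and 10.05, and lower in differentiated ones, at 7.85, 8.60 and 7.96. In brain it read 5.23, 6.50 and 5.27 in proliferative and 7.04, 6.99 and 6.33 in differentiated cultures. The brain groups overlapped, and 2 of the 3 proliferative brain arrays lay under their 40th percentile. Differentiated brain replicate 3, at 6.33, also lay under its own, at 6.35. With differentiation Ctss fell 3.73-fold in spinal cord (95% interval 2.24 to 6.24, adjusted p = 0.000604) and rose 2.18-fold in brain (1.30 to 3.64, adjusted p = 0.0159). The brain call was lost in 4 of 12 fits that left out 1 array (adjusted p of 0.00119 to 0.0694) and with values under the percentile set at it (1.51-fold, adjusted p = 0.0814). Spinal cord exceeded brain 20.7-fold in proliferative cultures (12.4 to 34.6, adjusted p = 4.66e-07; 14.3-fold with values under the percentile set at it) and 2.55-fold in differentiated ones (adjusted p = 0.00612).

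Cathepsin K, the main collagenase of osteoclasts, lay above the 40th percentile in spinal cord cultures alone. It read 8.27, 9.25 and 8.72 on spinal cord proliferative arrays and 11.77, 11.70 and 11.65 on differentiated ones. Brain arrays read 4.53, 2.53 and 4.50, then 3.53, 2.21 and 2.41, all under their 40th percentiles, where values have no reliable order. The rise in spinal cord was 7.78-fold (95% interval 3.72 to 16.2, adjusted p = 0.00032), or 6.60-fold with proliferative replicate 1 left out (adjusted p = 0.00146). Spinal cord was at least 6.22-fold above brain in proliferative cultures (adjusted p = 4.95e-06) and at least 42.4-fold in differentiated ones (adjusted p = 9.17e-09). Both adjusted p-values are from the fit to the deposited values, so they rest partly on those brain signals. Ctsk was also tested only because its spinal cord arrays passed the filter. In brain the log2 change of -1.14 between 2 dim groups was not called (adjusted p = 0.0747).

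Ctsk and Ctss lie near each other on chromosome 2 in the rat annotation of RefSeq, with 1 protein-coding gene model, LOC134485802, between them, and in spinal cord differentiation Ctsk rose where Ctss fell. Their promoters are shown for that reason, from 250 bases before to 50 after the start of the gene, in build GRCr8. Both were searched for GAAANNGAA, the core of the element through which interferon regulatory factors act. Capitals mark a match, which is a description of the letters and not a bound site.
Ctsk, chr2:185747298-185747597, plus strand: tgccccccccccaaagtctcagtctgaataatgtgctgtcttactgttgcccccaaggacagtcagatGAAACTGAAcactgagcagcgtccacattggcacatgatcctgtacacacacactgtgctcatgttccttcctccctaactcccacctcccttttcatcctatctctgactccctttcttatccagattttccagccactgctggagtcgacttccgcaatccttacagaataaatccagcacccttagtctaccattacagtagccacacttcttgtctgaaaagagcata
Ctss, chr2:185775146-185775445, plus strand: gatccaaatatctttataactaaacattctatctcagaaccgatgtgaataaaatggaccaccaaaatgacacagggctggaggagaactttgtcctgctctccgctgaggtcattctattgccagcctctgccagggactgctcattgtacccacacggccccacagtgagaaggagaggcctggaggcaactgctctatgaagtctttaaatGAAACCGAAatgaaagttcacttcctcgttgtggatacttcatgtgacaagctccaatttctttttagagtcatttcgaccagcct
The match lay at bases -182 to -174 from the start in Ctsk and -36 to -28 in Ctss. The motif, searched on both strands, was in 9.71% of 33469 rat promoters of this length and in these 2 of the 8 members with a promoter sequence in RefSeq's table, which did not list Ctsb.

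Cathepsin D, the aspartic protease, rose in brain and had no called change in spinal cord. It read 11.35, 11.22 and 11.92 on brain proliferative arrays and 12.24, 12.23 and 12.17 on brain differentiated ones. In spinal cord it read 11.92, 12.70 and 12.71 before and 12.80, 12.53 and 12.46 after differentiation. The brain groups were apart, the cord groups overlapped, and proliferative cord arrays also overlapped with differentiated brain arrays. The rise in brain was 1.64-fold (1.21 to 2.23, adjusted p = 0.0105), not called after median centring (adjusted p = 0.0643) or without brain proliferative replicate 2 (adjusted p = 0.0508). In spinal cord the log2 change was 0.16 (-0.28 to 0.60, adjusted p = 0.578). Spinal cord was 1.92-fold above brain in proliferative cultures (adjusted p = 0.00247), and in differentiated ones the log2 difference of 0.38 was not called (-0.05 to 0.82, adjusted p = 0.152), though it was without spinal cord proliferative replicate 1 (adjusted p = 0.0451) and with only the groups of the contrast (adjusted p = 0.00522).

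The promoter of Ctsd is shown because TFEB, the master factor of lysosomal genes, binds the palindrome TCACGTGA, and Tfeb was measured beside it. Capitals mark CACGTG, which is part of the longer motif, and TCACGTGA.
Ctsd, chr1:206968772-206969071, minus strand, GRCr8: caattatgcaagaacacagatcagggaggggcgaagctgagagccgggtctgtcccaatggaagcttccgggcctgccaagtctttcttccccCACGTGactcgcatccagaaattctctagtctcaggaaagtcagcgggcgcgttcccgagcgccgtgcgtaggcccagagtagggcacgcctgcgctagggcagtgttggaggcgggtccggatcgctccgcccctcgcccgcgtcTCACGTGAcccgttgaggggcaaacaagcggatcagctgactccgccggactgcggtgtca
CACGTG lay at bases -157 to -152 and -10 to -5 from the start and TCACGTGA at -11 to -4, over the second CACGTG. Both read alike on the 2 strands. CACGTG was in 6.42% and TCACGTGA in 0.777% of the 33469 promoters, and among the 8 members searched in Ctsd alone. Tfeb rose 2.27-fold in brain differentiation (adjusted p = 8.77e-05) and had a log2 change of 0.42 in spinal cord (adjusted p = 0.0701), which was not called. It was 1.78-fold higher in proliferative spinal cord than in proliferative brain cultures (adjusted p = 0.0019). A match describes the letters and is not a bound site, and any part of Tfeb in the results on Ctsd was not tested.

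Cystatin C fell with differentiation in spinal cord and had no called change in brain. Cst3 read 14.15, 14.03 and 14.02 on brain proliferative arrays and 14.41, 14.27 and 14.28 on brain differentiated ones. In spinal cord it read 13.79, 14.23 and 14.27 before and 13.80, 13.54 and 13.53 after differentiation. The differentiated cord arrays lay under all brain arrays, and replicate 1 of the proliferative cord group, at 13.79, lay among them. Cst3 fell 1.39-fold in spinal cord (1.17 to 1.66, adjusted p = 0.00549), or 1.55-fold without that array (adjusted p = 0.000115). In brain the log2 change of 0.25 was not called (-0.00 to 0.50, adjusted p = 0.0951), though the groups did not overlap, and it was called in 3 of 21 alternatives: quantile normalization (adjusted p = 0.00894), only the groups of the contrast (adjusted p = 0.0234) and the fit without proliferative cord replicate 1 (adjusted p = 0.0205). Between tissues the log2 difference was 0.03 in proliferative cultures (-0.22 to 0.28, adjusted p = 0.877), and differentiated spinal cord cultures were 1.62-fold below brain (1.36 to 1.93, adjusted p = 0.000295). These signals are near the highest of any array (14.80 to 15.18), and whether the probe set was saturated was not tested.

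**Figure D2:**
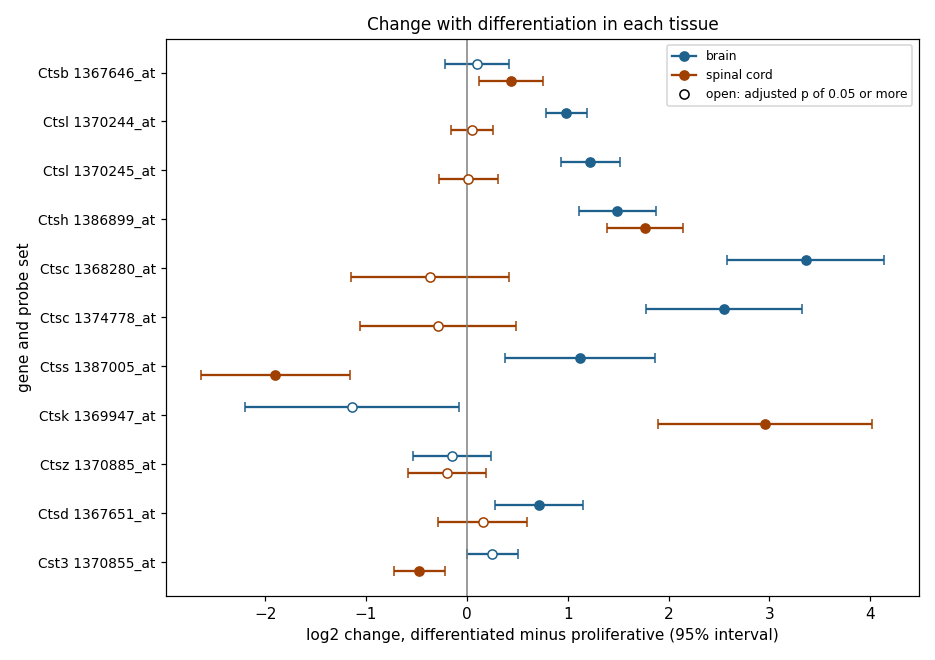
Log2 change from proliferative to differentiated cultures (horizontal axis, with the 95% interval) of each member probe set in brain and in spinal cord; open points had an adjusted p of 0.05 or more. Ctsc and Ctsl were called higher in brain and not in spinal cord, Ctsh in both tissues, and Ctss has opposite signs; the Ctsk value in brain compares 2 dim groups.

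The responses themselves were compared as spinal cord minus brain. Ctsc, Ctsl and Ctss had the more negative response in spinal cord, with log2 differences of -3.72 for Ctsc (adjusted p = 6.99e-05), -0.94 for Ctsl (adjusted p = 0.000106) and -3.02 for Ctss (adjusted p = 0.000249). Cst3 differed by -0.73 (adjusted p = 0.00328), a call that ended with median centring (-0.50, adjusted p = 0.0722). Ctsk was more positive in spinal cord, by 4.10 (adjusted p = 0.000398), or by 2.77 when values under the percentile were set at it. For Ctsb, Ctsd, Ctsh and Ctsz the difference was not called. Its interval was -0.11 to 0.79 for Ctsb, -1.18 to 0.06 for Ctsd and -0.59 to 0.50 for Ctsz. Ctsd was called without spinal cord proliferative replicate 1 (-0.82, adjusted p = 0.00758) and without brain proliferative replicate 3 (-0.77, adjusted p = 0.0342).

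**Figure D3:**
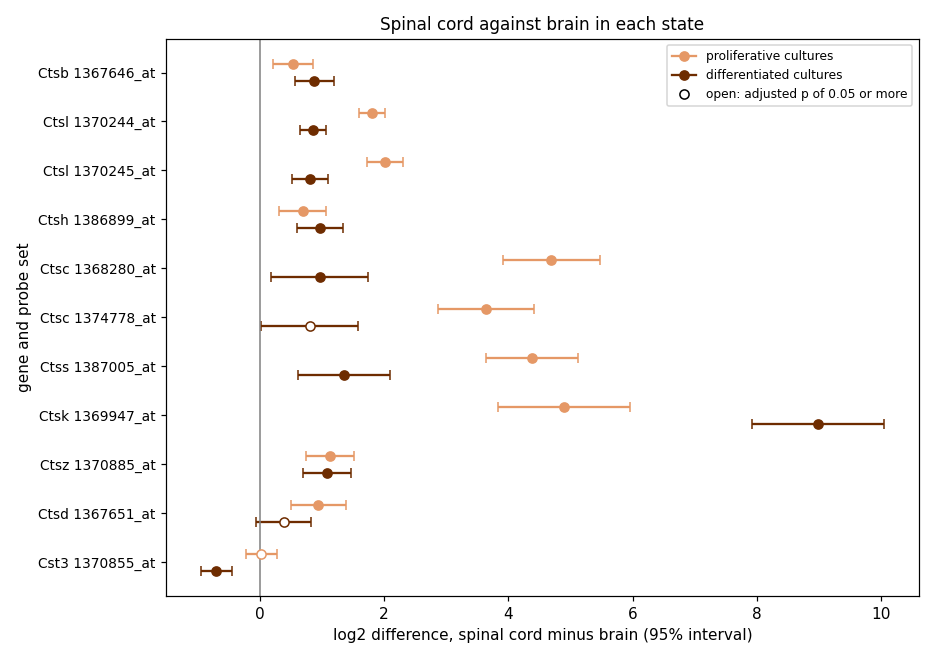
Log2 difference between tissues, spinal cord minus brain (horizontal axis, with the 95% interval), of each member probe set in proliferative and in differentiated cultures; open points had an adjusted p of 0.05 or more. All members but Cst3 were called higher in spinal cord in the proliferative state, and the Ctsk values are set against dim brain groups, so their size is not reliable beyond at least 6.22-fold and at least 42.4-fold.

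Markers of other cells moved with several members. In bulk RNA fewer cells of a type and less RNA per cell cannot be told apart. Counts in the marker lists stand beside 23.7% higher and 23.1% lower of all probe sets tested in brain differentiation, and 18.3% and 22.0% in spinal cord. For spinal cord against brain these shares were 19.4% and 18.5% in proliferative cultures, and 18.5% and 22.9% in differentiated ones. Of 19 microglia and macrophage markers on the array, 12 were dim in brain proliferative, 5 in brain differentiated, 4 in spinal cord proliferative and 5 in spinal cord differentiated cultures. Itgam, Cx3cr1, Trem2 and P2ry12 were dim in all 4 groups. Their summed linear signal was 1210 to 1630, 2730 to 3120, 10100 to 16000 and 7980 to 8530 in that order of groups. Of 15 tested, 8 rose and 1 fell in brain differentiation, 1 rose and 6 fell in spinal cord differentiation, 15 were higher in spinal cord in the proliferative state and 10 in the differentiated one. Ctss and this sum had the same order of groups and both were highest on spinal cord proliferative replicate 1, at 10.43 for Ctss and 16000 for the sum. Ctsc also rose in brain where these markers rose, but on that array it read lower than on replicates 2 and 3. The part of such cells in the results on Ctss and Ctsc was not tested.

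Fibroblast and mural markers moved with Ctsk in spinal cord differentiation and between tissues. Of 16 on the array, 5 were dim in brain proliferative cultures (Lum, Ogn, Pdgfrb, Thy1 and Rgs5), 6 in brain differentiated ones (Dcn, Lum, Ogn, Pdgfrb, Lox and Rgs5) and Rgs5 alone in each spinal cord group. Their summed signal was 3330 to 4210 and 2690 to 3130 on the brain arrays, 41600 to 77200 on spinal cord proliferative and 131000 to 150000 on spinal cord differentiated arrays. Of 15 tested, 10 rose and 0 fell in spinal cord differentiation, 12 were higher in spinal cord than in brain in the proliferative and 13 in the differentiated state, and 1 was lower in the latter. In brain differentiation, where Ctsk was dim in both groups, 3 markers rose and 3 fell. Within the proliferative cord group both Ctsk and the sum were lowest on replicate 1 and highest on replicate 2. This order was not particular to them. Ctsb, both Ctsc probe sets, Ctsh and Ctsl by 1370244_at shared it. So did the summed astrocyte markers (30100, 47700 and 43500) and lysosomal hydrolases (30800, 39100 and 34100). The part of such cells in the results on Ctsk was not tested.

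**Figure D4:**
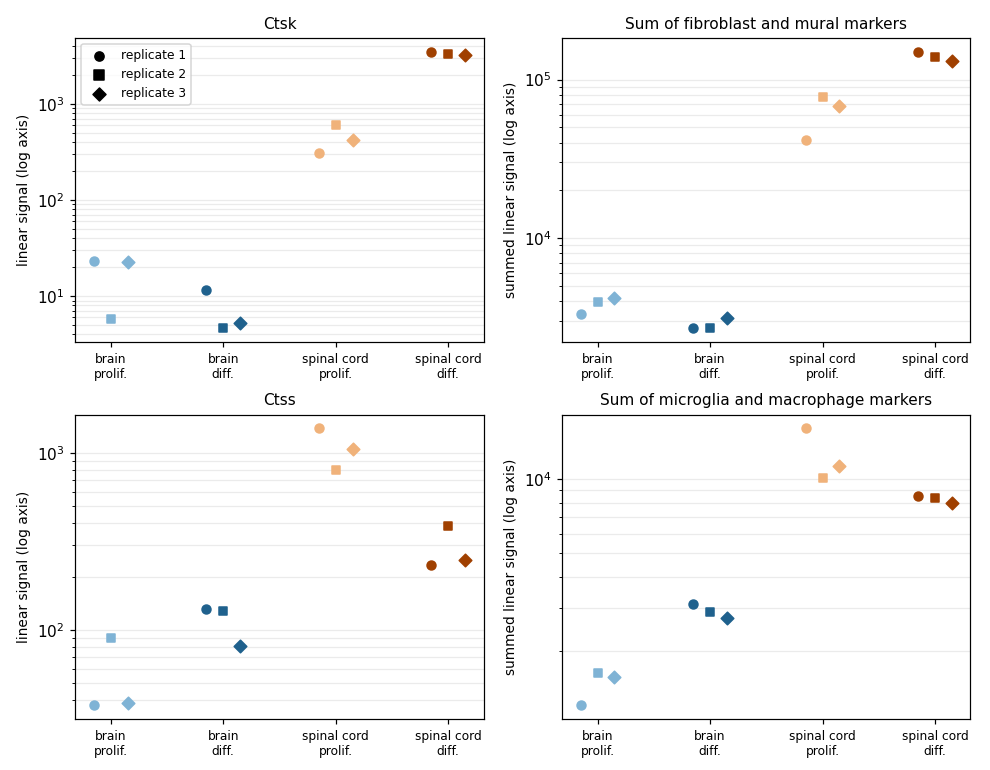
Linear signal (log axes) of Ctsk beside the summed signal of 16 fibroblast and mural markers, and of Ctss beside that of 19 microglia and macrophage markers, on the 12 arrays by group, with a symbol for each replicate number. Fibroblast sums run from 2690 to 4210 on brain arrays and from 41600 to 150000 on spinal cord arrays.

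Among the other cells, oligodendrocyte markers rose in 9 of 9 cases in brain differentiation and fell in 2 of 9 in spinal cord, and all 9 were higher in spinal cord in the proliferative state. Ctsc, Ctsl and Ctsd likewise rose in brain and were not called in spinal cord. Astrocyte markers rose in 10 of 12 cases in brain, and 6 rose and 4 fell in spinal cord. Neuron markers fell in 7 of 11 in each tissue, with 1 rise in brain. Of the NSC markers 5 of 9 rose and 2 fell in brain, and 1 rose and 6 fell in spinal cord. Endothelial markers were scarce, with 3 of 9 tested, and 2 fell in brain and 3 in spinal cord. Signs of RNA quality moved with some groups. The 3' minus 5' signal of Gapdh ran from 0.08 to 0.13 before and from -0.13 to 0.07 after differentiation in brain, and the 5S rRNA control was 9.50 to 11.02 and 7.85 to 8.19. The 3' minus 5' signal of Actb overlapped between the brain states (0.77 to 0.84 and 0.73 to 0.81), was 0.69 to 0.99 in proliferative cord cultures and 0.99 to 1.01 in differentiated ones, so the differentiated tissues did not overlap. The part of these markers and signs in the brain results and in the tissue differences was not tested.

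Other genes of the lysosome were counted from lists, with the representative probe set of each gene. Shares of all probe sets tested that rose and fell were 23.7% and 23.1% in brain differentiation and 18.3% and 22.0% in spinal cord. Between tissues the shares higher and lower in spinal cord were 19.4% and 18.5% in proliferative and 18.5% and 22.9% in differentiated cultures. Of 9 other cysteine and lysosomal proteases tested, 7 rose and 0 fell in brain differentiation, and 4 rose and 0 fell in spinal cord. Their median log2 changes were 1.26 and 0.40. Lgmn, the asparaginyl endopeptidase that processes cathepsin precursors, rose 2.81-fold in brain (adjusted p = 1.12e-06) and had a log2 change of -0.10 in spinal cord (adjusted p = 0.571). It was 3.96-fold higher in spinal cord than in brain in proliferative cultures (adjusted p = 1.09e-07) and 1.31-fold in differentiated ones (adjusted p = 0.0307), and its responses differed by -1.59 (adjusted p = 1.74e-05). The other rises with the largest size were those of Cpq, a carboxypeptidase, at 5.53-fold in spinal cord and at least 3.74-fold in brain, and Dpp7, a dipeptidyl peptidase, at 2.98-fold in brain. Between tissues 6 of the 9 were higher in proliferative and 4 in differentiated spinal cord cultures, with 0 lower.

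Of the other cystatins and cathepsin inhibitors only 3 of 12 on the array were tested. Cstb, the inhibitor of cathepsins inside the cell, rose 1.52-fold in brain (adjusted p = 0.00249) and had a log2 change of 0.26 in spinal cord (adjusted p = 0.148). Cst6, a secreted cystatin, rose at least 4.72-fold in spinal cord differentiation (adjusted p = 0.0018) to 8.59 ± 0.23 (SD, n = 3). In brain Cst6 fell to a dim level from 6.06 ± 0.17 (adjusted p = 0.00188), and as that mean lay under the group's mean percentile of 6.11 no fold is given. Serpinb6a, a serpin inside the cell, fell 3.92-fold in brain (adjusted p = 1.7e-06). Cst7 was not tested and Csta has no probe set of a single symbol.

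Lysosomal hydrolases rose in 15 of 23 cases in brain, with 0 falls, and in 12 with 1 fall in spinal cord (medians 0.72 and 0.54). Examples were Galc, which breaks down the myelin lipid galactocerebroside, at 2.79-fold in brain, Man2b1, an alpha-mannosidase, at 2.49-fold in spinal cord and Gusb, the beta-glucuronidase, at 2.41-fold in spinal cord. In the difference of responses 4 hydrolases were more positive and 7 more negative in spinal cord, beside 18.8% and 21.7% of all probe sets tested. Without spinal cord proliferative replicate 1 the falls in spinal cord numbered 3, and after median centring the 12 that were higher in proliferative spinal cord than in brain cultures became 7 and the 7 more negative responses 3.

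Of 22 genes for lysosomal membrane proteins, activators and sorting, 13 rose and 2 fell in brain, and 7 rose and 4 fell in spinal cord. Over all probe sets tested 18.3% rose and 22.0% fell in spinal cord. Lamp1, the main membrane glycoprotein, rose 1.97-fold in brain (adjusted p = 5.98e-06) with a log2 change of 0.15 in spinal cord (adjusted p = 0.293). Psap, the precursor of sphingolipid activators, rose 2.01-fold in brain (adjusted p = 4.24e-05) and changed by -0.09 in spinal cord (adjusted p = 0.634). Grn, progranulin, rose in both, 2.06-fold and 1.79-fold. The sorting receptors differed: Sort1, sortilin, rose 3.24-fold in brain, and Igf2r, the large mannose 6-phosphate receptor, rose 1.92-fold in spinal cord (adjusted p = 0.000643) and had a log2 change of -0.10 in brain. M6pr, the small mannose 6-phosphate receptor, was not called in any of the 5 contrasts (adjusted p of 0.233 to 0.721). Gnptab, which builds the mannose 6-phosphate tag, fell 1.97-fold in spinal cord (adjusted p = 1.23e-05).

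Genes of the vacuolar ATPase, which acidifies the lysosome, and of lysosome biogenesis rose in 7 of 20 cases and fell in 1 in brain, and rose in 2 and fell in 7 in spinal cord. After median centring these counts were 3 and 1 in brain, and 4 and 3 in spinal cord. Of all probe sets tested, 18.3% rose and 22.0% fell in spinal cord without that centring. Atp6v0d1, a subunit of its membrane part, rose 2.13-fold in brain and 1.44-fold in spinal cord. The falls in spinal cord were led by Tcfl5, at 4.16-fold, and Mitf, a relative of Tfeb, at 1.67-fold. Tcfl5 is a transcription factor of the basic helix-loop-helix class that was counted because it was on the list. Whether it has any link to the lysosome was not tested.

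**Figure D5:**
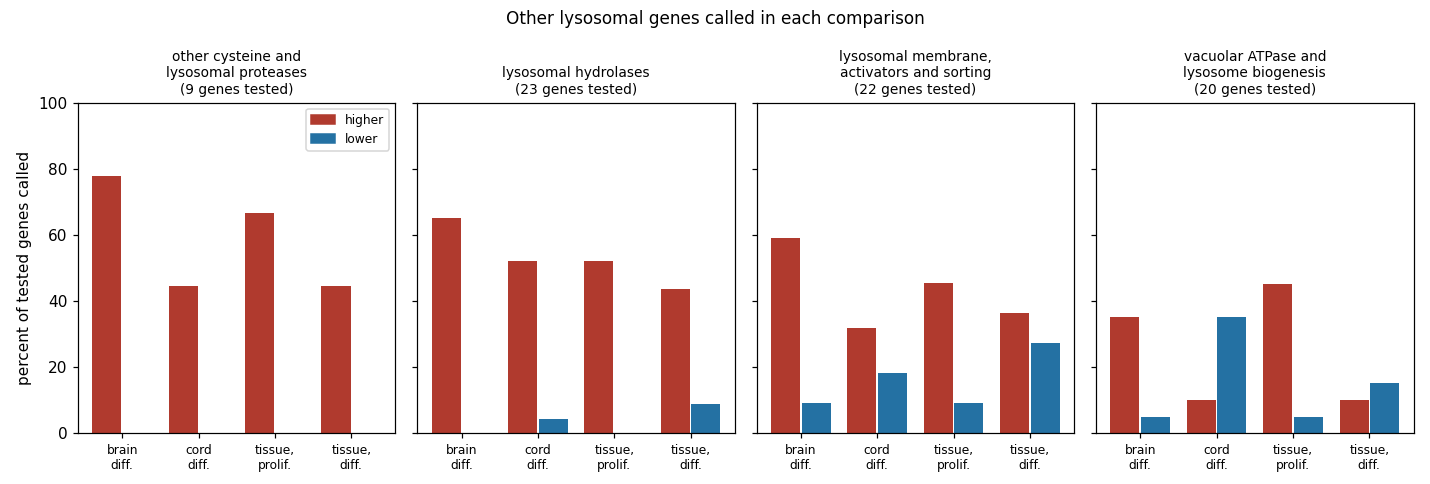
Share of the tested genes of 4 lysosomal lists (vertical axis, percent) that were called higher (red) or lower (blue) in brain and spinal cord differentiation and in spinal cord against brain in each state. Higher calls in brain differentiation number 7 of 9 proteases, 15 of 23 hydrolases, 13 of 22 membrane and sorting genes and 7 of 20 genes of the vacuolar ATPase and biogenesis. Over all probe sets tested 23.7% were called higher there.

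Antigen presentation through MHC class II, the setting in which cathepsin S is best known, had 3 of 9 genes tested. These 3, RT1-DMa, RT1-DMb and Ifi30, were higher in spinal cord than in brain in both states, and 2 rose in brain differentiation. RT1-DMb was dim in both brain groups. Cd74, Ciita, RT1-Ba, RT1-Bb, RT1-Da and RT1-Db1 were not tested. Of these, RT1-Ba and RT1-Bb were dim in all 4 groups and Cd74 in all but differentiated spinal cord cultures. Ifi30, a lysosomal thiol reductase that works beside the cathepsins, rose 1.86-fold in brain (adjusted p = 0.00111) and 2.58-fold in spinal cord (adjusted p = 4.46e-05). Of 19 interferon-induced genes 18 rose in brain and 17 in spinal cord, with 0 falls, and 10 were higher and 1 lower in proliferative spinal cord than in brain cultures, or 16 and 1 without spinal cord proliferative replicate 1. Of all probe sets tested, 23.7% rose and 23.1% fell in brain differentiation, and 18.3% and 22.0% in spinal cord. Spinal cord was higher in 19.4% and lower in 18.5% in the proliferative state, and in 18.5% and 22.9% in the differentiated one.

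Genes with the most similar pattern over the 4 group means, each centred on its own average, were ranked among 11209 genes by root mean square difference. The nearest to Ctsb was Nhsl3 (0.016), and to Cst3 it was Zfp316 (0.025). P2ry6 (0.053) was nearest to Ctsz, Slc6a9 (0.053) to Ctsd, Sparc (0.081) to Ctsh and Vps13c (0.086) to Ctsl. Nkx6-2 (0.105) was nearest to Ctsc, followed by Siglec5 (0.236) and Clec4a3 (0.248). For Ctss it was Prl6a1 (0.128), followed by H19 (0.163) and Sec16b (0.243). Bst1 (0.403), Grb10 (0.515) and Mnda (0.556) were nearest to Ctsk. Of the genes named for Ctsc, Ctss and Ctsk, all but H19 had a mean under the group's mean 40th percentile in proliferative brain cultures, as did Ctss and Ctsk themselves, so these distances rest partly on values with no reliable order. The distances rest on only 4 group means. How many other genes come nearly as close was not counted, and likeness is given as a description.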

How the data were processed

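Signals of 12 Affymetrix Rat230_2 arrays were used as deposited, on the log2 scale, with a value for each probe set. Per the submitters' processing notes the tools were MAS5 and affy, with no version given. The linear mean with the top and bottom 2% trimmed, averaged over the 12 arrays and rounded, was 500, found from the values. Total RNA was labelled by a 3' in vitro transcription kit, per the labels' protocols, so signals read the 3' part of transcripts. Detection calls were not used here. The authors' table held 31099 probe sets, of which 57 were controls and left out. Gene symbols came from the platform annotation (1 symbol for 20826 probe sets, several for 436, none for 9780), and the probe set with the highest mean stood for its gene.

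Contrasts came from limma 3.58.1 in R 4.3.3 (lmFit with a mean per group, eBayes with a trend, 8 residual degrees of freedom), tested on simulated data first, with figures in Python 3.11.15 and matplotlib 3.10.9. The number of arrays limits the precision. Members and the 14 pathway and marker lists were chosen with earlier results of these data known, and lists are described by counts with no test. All member probe sets are named, and of each pathway list at most the 2 called genes with the largest rise and fall per contrast, with Lgmn, Cstb, Csta, Cst6, Cst7, Grn, Psap, Lamp1, Igf2r, M6pr and Tfeb. Alternatives were no filter and a filter at the 60th percentile, median centring, quantile normalization, log2(signal + 64), eBayes without a trend, only the groups of the contrast, a replicate block and leaving out each array. Setting values under an array's 40th percentile at that percentile was added after seeing the data.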

Additional observations from a re-analysis of the deposited data

Results flagged for a closer look

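For 7 probe sets of 5 genes the differentiation response differed between tissues by limma's test of the difference itself (spinal cord minus brain, log2). Ctsc, which rose in brain and was not called in spinal cord, differed by -3.72 (1368280_at, adjusted p = 6.99e-05) and -2.84 (1374778_at, adjusted p = 0.000583), and by -4.27 and -3.43 without spinal cord proliferative replicate 1. Ctss, which rose in brain and fell in spinal cord, differed by -3.02 (adjusted p = 0.000249). With values under the 40th percentile set at it, the Ctss difference was -2.50 (adjusted p = 0.000106). Ctsl differed by -0.94 (1370244_at, adjusted p = 0.000106) and -1.21 (1370245_at, adjusted p = 0.000229), and Cst3 by -0.73 (adjusted p = 0.00328), which was not called after median centring (-0.50, adjusted p = 0.0722). Ctsk differed by 4.10 (adjusted p = 0.000398), a size that rests on brain values under the percentile and was 2.77 with those at it. Leaving out any of the 12 arrays kept the sign and the call of each of these 7 differences.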

How the results depend on the processing

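Over 1144 refits of a member's log2 difference under an alternative, 1079 kept direction and side of the threshold, 28 lost the call, 16 gained it and 21 turned sign, 0 of the latter in a difference that was called. With median centring, which moved the median of all probe sets by -0.15 in brain differentiation, -0.21 between proliferative cultures and 0.23 in the difference of responses, 1 member (Ctsk, dim in both groups) was called lower in brain, and Ctsb in brain differentiation was -0.053, Cst3 between proliferative cultures -0.18 and the Ctsz difference of responses 0.18. With quantile normalization Ctsl in spinal cord differentiation was -0.18 and -0.025 and the Ctsz difference of responses 0.031. With dim values at the percentile Ctsk in brain differentiation was 0.19. The cause of these turns was not tested.

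Leaving out each array, member probe sets lower in brain differentiation numbered 0 to 1, the latter being Ctsk without brain proliferative replicate 2 or brain differentiated replicate 1, and those lower in spinal cord differentiation 2 to 4, with both Ctsc probe sets added without spinal cord proliferative replicate 1. Changes in spinal cord differentiation then ranged from -0.91 to 0.045 and -0.88 to 0.11 for Ctsc, -0.11 to 0.29 for Ctsd, and -0.0052 to 0.10 and -0.072 to 0.11 for Ctsl. Ctsz ranged from -0.31 to 0.080 in brain differentiation and -0.27 to 0.11 in the difference of responses, and Cst3 from -0.058 to 0.18 between proliferative cultures. Without the filter the Ctsc call between differentiated cultures (1368280_at) was lost (adjusted p = 0.0571), and the range of that adjusted p over the fits without 1 array was 0.00185 to 0.148.

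No large effect shared by same-numbered arrays was seen: over 18 same-numbered pairs the correlation of deviations was -0.119 to 0.048, above 0.1 in 0. This cannot decide whether such arrays share an animal or a culture, which the labels do not give. A fit with the replicate number as a block left 7 member probe sets higher and 0 lower in brain differentiation, and 3 and 2 in spinal cord. The counts were 10 and 0 between proliferative and 9 and 1 between differentiated cultures (Ctsc by 1374778_at added), and 1 and 6 in the difference of responses. Values under the 40th percentile limit what can be said of Ctsk and Ctss in brain cultures.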
